A study of Caenorhabditis elegans with 2 samples.

Results

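ATF-7 is the *C. elegans* member of the ATF2 and ATF7 family of basic leucine zipper proteins, which bind DNA as dimers. Their classical target is the cAMP response element (CRE), the 8-base palindrome TGACGTCA, in which each partner of the dimer contacts one side of the centre. In worms ATF-7 is best known as a target of the p38 MAP kinase PMK-1 in innate immunity, where it restrains defence genes until it is phosphorylated. Chromatin immunoprecipitation with sequencing (ChIP-seq) returns a graded series of peaks, and the reproducible ones are usually kept by an irreproducible discovery rate (IDR) filter.

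The weak CRE peaks described here are the 1218 peaks that carry a full CRE but did not enter the IDR list. They were chosen from the authors' pooled relaxed list of 30000 peaks, of which 2247 were also IDR peaks and 27753 were not. A peak of the second kind is called a weak peak. It counted as a weak CRE peak where the whole 8-base site lay within 100 bp of its summit on the WBcel235 genome (build ce11). The other 26535 weak peaks had no such site, and 220 of the IDR peaks had one. The members were thus selected on IDR status, which in these lists was the same as a limit on pooled signal, and on the motif. Pooled signal and the presence of the CRE are given as descriptions with no test.

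The 2 samples were whole young adults of strain OP638, genotype unc-119(tm4063) III; wgIs638, a stable transgenic line in which ATF-7 carries a C-terminal GFP-FLAG tag. Males and females were pooled, and the worms had been synchronised by hatching bleached eggs and starving the first larval stage. For the antibody, the free-text description gives anti-GFP while the sample field gives atf-7, and anti-GFP was taken as correct. The samples, numbered as replicates 2 and 3, came from different biosamples and formed 1 group, so there was no comparison between conditions and no test across animals. ATF-7 was measured as a tagged transgene product and in all tissues together, so a site bound in few cells and a site bound weakly in many cannot be told apart. Read depth is not known from the files, and all intervals below are exact 95% Clopper-Pearson intervals that cover counting error only.

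The sites themselves are shown first, because the bases beside the CRE turned out to differ between sites with and without a peak. Each is given 5′ to 3′ on the plus strand with the CRE in capitals, read from the reference genome. The first 4 are strong members with A before the CRE and T after it, which makes a 10-base palindrome. They lie in a coding exon of F38E11.9 (CRE at IV:9443152-9443159), just inside the start of ptr-4 (X:6065893-6065900), in an intron of pkd-2 (IV:15234502-15234509) and in a coding exon of jip-1 (II:1330391-1330398).
F38E11.9: gatttagatgaTGACGTCAttttgaaagca
ptr-4: tgttttaatgaTGACGTCAtttaaatttgt
pkd-2: tttgaaagtaaTGACGTCAtacttactttc
jip-1: ttgtataattaTGACGTCAtcggcggcggg
The next 3 have that base on 1 side alone and lie near the start of vamp-7 (IV:2608240-2608247), in a coding exon of mpc-1 (III:4414344-4414351) and near a 5′ end of bec-1 (IV:5662524-5662531).
vamp-7: tttgcagatagTGACGTCAtccgcctcgta
mpc-1: cagtggaccaaTGACGTCAgctcttctgat
bec-1: tttttagataaTGACGTCAcacacacacct
The last 2 have it on neither side. They lie upstream of W01D2.3 (II:14804695-14804702) and at the start of hlh-30 (IV:4034800-4034807).
W01D2.3: ctccttttctgTGACGTCAcaaacagcctc
hlh-30: gcttgttcctcTGACGTCAcgaatttcaaa

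The outer bases were not part of the rule, and they differed between the sites. The genome holds 6026 CRE sites on the 6 chromosomes. An IDR summit lay within 100 bp of 263 of them (4.36%, interval 3.86 to 4.91), and a weak summit but no IDR summit lay within 100 bp of 1291 (21.4%, 20.4 to 22.5). A further 596 sites (9.89%) were near a summit of a replicate list alone, and 3876 (64.3%) were near none. Because the CRE is its own reverse complement, each site gives 2 outer bases when both strands are read 5′ to 3′. An A before the site on the plus strand is a T after it on the minus strand, so the 10-base palindrome is called T on both sides. At weak peaks T followed the site in 48.8% of 2582 readings (46.8 to 50.7), against 53.6% of 526 at IDR peaks and 21.98% of 7752 at sites with no peak. G followed in 9.80%, 4.18% and 21.4% of readings in the same order. In both measures the weak sites lay nearer to the IDR sites than to the sites with no peak.

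Of the 766 CRE sites with T on both sides, 346 had a weak peak and no IDR peak (45.2%, 41.6 to 48.8). This share was 26.01% of 2180 sites (24.2 to 27.9) with T on 1 side and 12.27% of 3080 sites (11.13 to 13.5) with T on neither side. The 3 intervals did not overlap. The share with an IDR peak fell in the same order, with 11.5%, 4.86% and 2.24%. Another palindrome of the same length, with G before the CRE and C after it, had a weak peak at 135 of 884 sites (15.3%, 13.0 to 17.8). The palindrome ending in T thus stood above the one ending in C. Repeats differed between the classes, since 56.9% of sites with no peak lay in soft-masked sequence (marked as repetitive in the reference), against 40.3% of sites with a weak peak. Among unmasked sites whose surrounding 60 bases occur once in the genome's CRE sites, the weak shares were 44.2%, 27.3% and 16.8%, in the same order.

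**Figure D1:**
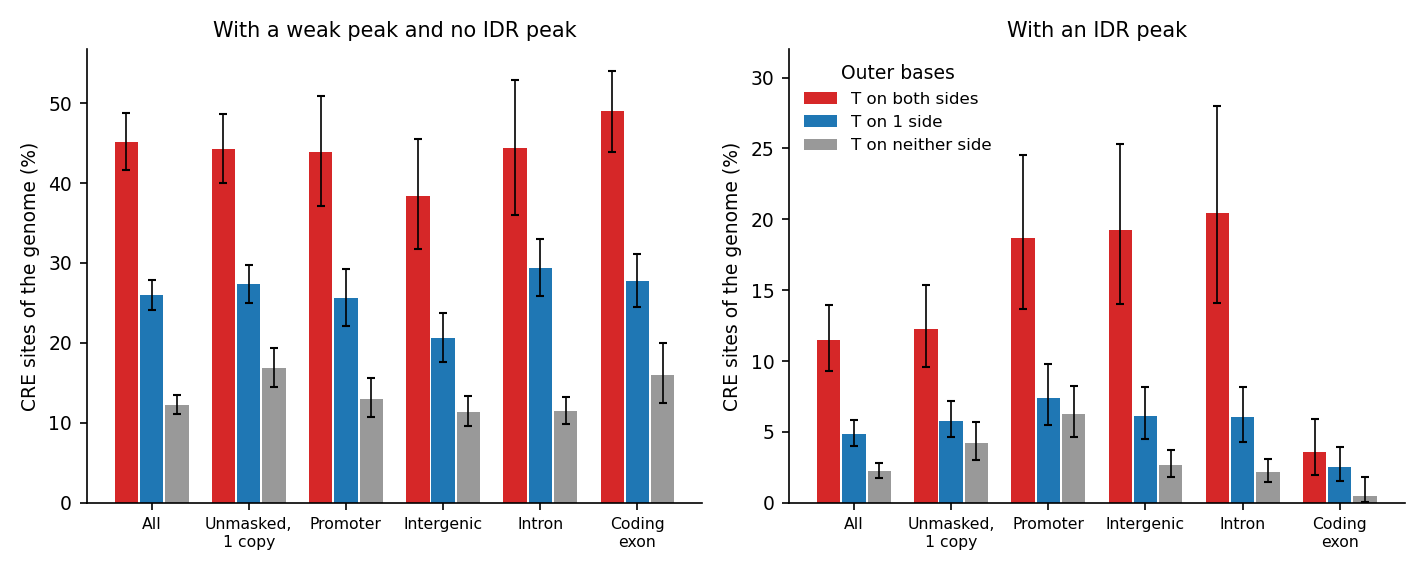
Share of the CRE sites of the genome that had a weak peak and no IDR peak within 100 bp (left) or an IDR peak (right), by outer bases and location, with exact 95% intervals as bars. Sites with T on both sides were highest in every class on the left (38.4% to 48.98%), and in coding exons their IDR share was 3.55%.

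Location set weak and IDR peaks apart. In coding exons 464 of 1537 CRE sites had a weak peak (30.2%, 27.9 to 32.6) and 35 had an IDR peak (2.28%, 1.59 to 3.15). Between genes the weak share was lower, at 17.1% of 2114 sites (15.5 to 18.7), and the IDR share was higher, at 5.44% (4.51 to 6.49). Introns gave 18.8% and 4.49% of 2206 sites. Among sites with T on both sides, the IDR shares of coding and intergenic sites stayed apart, with 14 of 394 (3.55%, 1.96 to 5.89) and 39 of 203 (19.2%, 14.03 to 25.3). The weak shares there were closer, with 193 coding sites (48.98%, 43.9 to 54.04) and 78 intergenic sites (38.4%, 31.7 to 45.5), and their intervals overlapped. Intron sites of this class had 44.4% and 20.4%. Promoters, taken as 1000 bp upstream to 200 bp downstream of a protein-coding transcript's 5′ end, held 1573 sites. Their weak share of 22.1% (20.03 to 24.2) was close to the 21.2% (20.01 to 22.4) of sites outside promoters.

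Counted by peak, 431 of the 1218 weak CRE peaks had their summit in a coding exon (35.4%, 32.7 to 38.1), 403 in an intron (33.1%) and 338 between genes (27.8%). The summit lay in a 3′ UTR in 24 peaks and in a 5′ UTR in 22. Of the 220 IDR peaks with a CRE, 14.5% (10.2 to 19.9) were in coding exons and 46.8% (40.1 to 53.6) between genes. Weak peaks without the CRE were at 32.5% and 31.6%. Promoters held 323 weak CRE peaks (26.5%, 24.1 to 29.1), against 31.6% of other weak peaks and 48.6% (41.9 to 55.4) of IDR peaks with a CRE. Within promoters the median summit was 193 bp upstream of the nearest transcript 5′ end, and 73.4% were upstream of it. A summit upstream of that 5′ end can still lie inside another transcript. No weak CRE peak lay within 200 bp of a tRNA gene, which allows a share of up to 0.246% when 3 counts of the total are taken as the limit (0.302% by the exact interval). The share was 1.16% in other weak peaks and 5 of 220 in IDR peaks with a CRE.

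All 6 chromosomes carried members, from 153 on X to 265 on V. X held 12.56% of the weak CRE peaks (10.8 to 14.6) and 19.3% of the other weak peaks. X also has the fewest CRE sites, 684, and the share of them with a weak peak was 23.2%, the highest of the 6 chromosomes, where II was lowest with 19.1%. The intervals of these 2 shares overlapped (20.1 to 26.6 and 16.55 to 21.8).

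The authors' signal value of the members ran from 24.6 to 104.5 with a median of 46.8, on a scale relative to the control that is comparable within the pooled list. The lowest IDR peak was at 104.61 and the highest weak peak, without a CRE, at 104.59, so the strongest members sat directly below the IDR limit. The lowest IDR peak itself carried a CRE. Other weak peaks had a median of 37.2 and IDR peaks with a CRE one of 169. At the other threshold, 62 members had a site that reached 91 to 100 bp from the summit (median signal 44.7), and 44 weak peaks had one that reached up to 10 bp past the limit (43.7) and were left out.

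The share of weak peaks with a CRE was graded by pooled signal. Over all 27753 weak peaks it was 4.39% (4.15 to 4.64), and in windows of the same size 500 bp to either side it averaged 1.04%. In 10 bins of equal size it was 9.04% (8.001 to 10.2) in the strongest, 5.08% in the fourth and 2.59% (2.04 to 3.26) in the weakest. The flank windows stayed between 0.88% and 1.21%. The lowest bin for the CRE was the eighth, with 1.77% (1.31 to 2.33), where the flank mean was 1.21%. The IDR peaks had a share of 9.79% (8.59 to 11.09), so the strongest weak bin lay inside their interval.

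**Figure D2:**
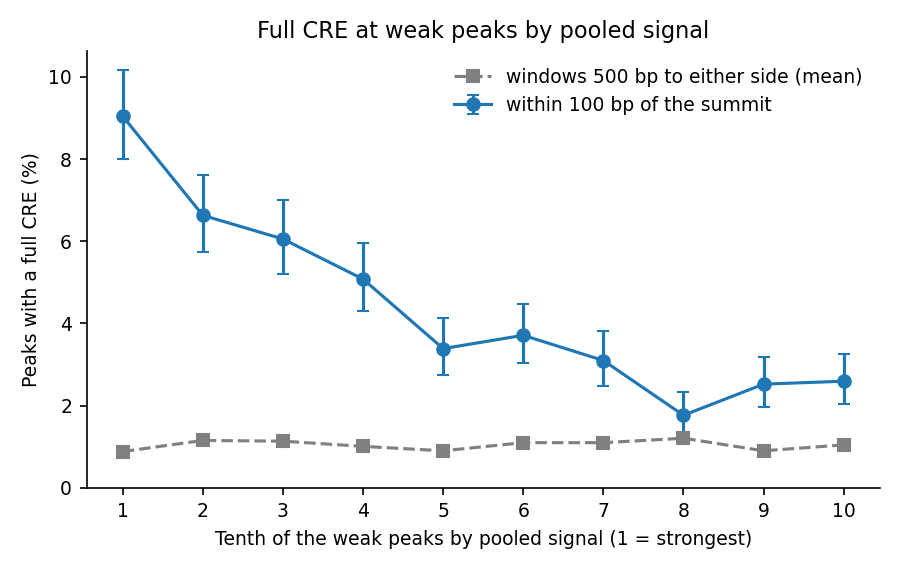
Share of weak peaks with a full CRE within 100 bp of the summit in 10 bins of pooled signal (blue, exact 95% intervals) and the mean of the windows 500 bp to either side (grey). The share was 9.04% in the strongest bin and 2.59% in the weakest, and the windows stayed between 0.88% and 1.21%.

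The outer bases were graded over the members too. The site nearest the summit had T on both sides in 342 members (28.1%, 25.6 to 30.7), on 1 side in 527 and on neither in 349. With the members cut into 4 groups of equal size from the strongest to the weakest pooled signal, the share with T on both sides was 41.6% (36.05 to 47.4), 30.9%, 25.3% and 14.4% (10.7 to 18.9). Median pooled signals were 54.5, 45.7 and 40.6 for T on both, 1 and neither side. In the class with T on neither side, 58.2% of sites were soft-masked, against 32.5% with T on both sides. The part of repeats in this order of signals was not tested.

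Presence in the replicate lists was scored where a replicate's summit lay within 100 bp. The replicate lists were made from the reads that the pooled list also used, so presence is not independent of pooled signal. Replicate 2's list held 826 of the 1218 weak CRE peaks (67.8%, 65.1 to 70.4), against 48.9% of all weak peaks. Replicate 3's list held 845 (69.4%, 66.7 to 72.0), against 64.4% of all weak peaks. Both lists held 562 (46.1%, 43.3 to 48.99), where the background was 27.7%, and 95.5% of the IDR peaks with a CRE were in both. A further 264 were in the list of replicate 2 alone (21.7%), 283 in that of replicate 3 alone (23.2%) and 109 in neither (8.95%). Over all weak peaks these shares were 21.2%, 36.7% and 14.4%. The members had higher pooled signals than other weak peaks, and the difference in the share in both lists was smaller between peaks of like signal. Within the 10 signal bins the members' share in both lists averaged 31.95%, against 27.4% for other weak peaks, and was higher in 9 bins. In the strongest bin it was 85.7% (80.7 to 89.7) against 77.1%.

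The lists of the 2 replicates differed in their share of members at matched pooled signal. At matched signal the members' share in replicate 2's list was above that of other weak peaks in 10 of 10 bins, with bin means of 58.3% and 48.4%. In replicate 3's list it was above in 2 of 10 bins, with means of 59.7% and 64.6%. Pooled signal uses the reads of both replicates, so at matched signal the shares in the 2 lists are tied to each other. The 2 bin counts are therefore not separate observations. Without bins, replicate 3's list held 69.4% of members and 64.2% of other weak peaks. The replicates also differed at the top of the lists. Among the 2247 strongest peaks of replicate 2 were 61 members (5.01%, 3.85 to 6.39), against 1.52% of other weak peaks. Among the 2247 strongest of replicate 3 were 12 (0.985%, 0.51 to 1.71), against 1.04%. In all 71 members were that strong in at least 1 replicate (5.83%, 4.58 to 7.30, where the background was 2.7%). By outer bases, replicate 2's list held 79.8% of members with T on both sides and 54.2% of those with T on neither, and replicate 3's list held 71.3% and 67.05%. Why the lists differed was not tested, and with 2 samples a library effect cannot be told apart from a difference between biosamples.

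**Figure D3:**
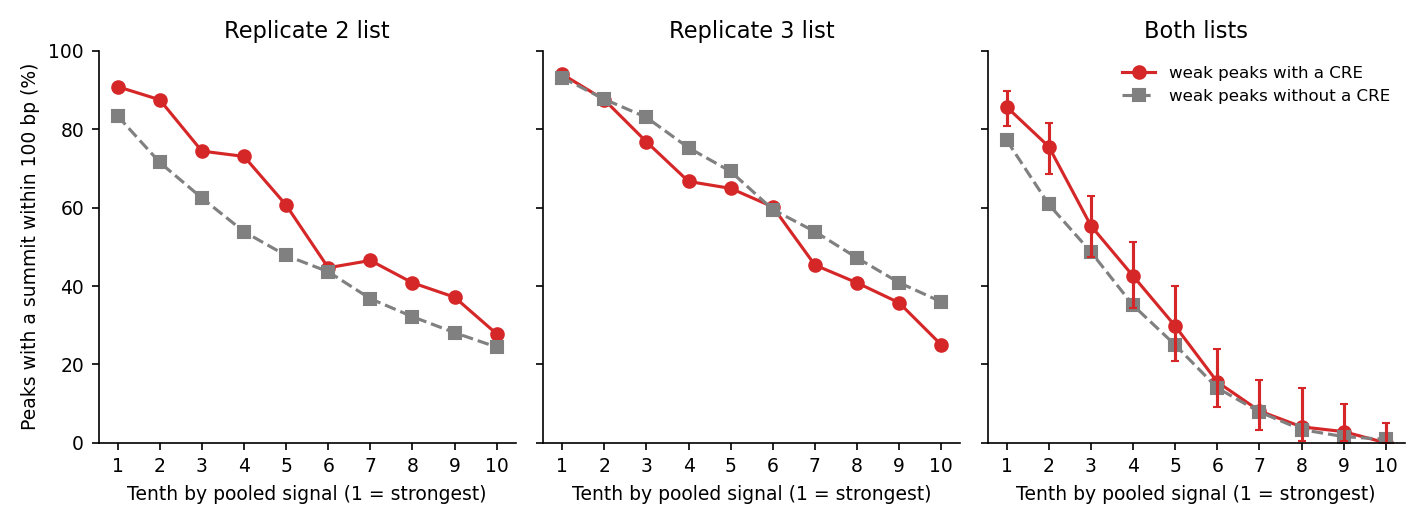
Share of weak peaks with a CRE (red) and without one (grey) that had a summit within 100 bp in each replicate's list, in 10 bins of pooled signal, with exact 95% intervals for the members in both lists. The red points lay above the grey ones in 10 of 10 bins for replicate 2 and in 2 of 10 for replicate 3. At matched pooled signal these 2 counts are not independent of each other.

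Within the 562 members found in both lists, the signal of replicate 2 and that of replicate 3 had a Spearman rank correlation of 0.28. It was 0.29 in the 7130 other weak peaks of both lists and 0.78 in 210 IDR peaks with a CRE. Each group covers a limited range of pooled signal, so these values are descriptions. Members were between 13.7 and 64.6 in replicate 2 (median 25.9) and between 16.6 and 85.996 in replicate 3 (median 31.2). The median pooled signal was 61.9 for members in both lists, 38.6 for those in 1 list and 28.4 for those in neither. The strongest member in neither list had a pooled signal of 88.7 and lay just inside the start of fmo-3, a flavin monooxygenase gene. Its nearest replicate 2 summit was 106 bp away, just past the 100 bp allowed. In all 43 of the 109 members in neither list had a replicate summit beyond 100 bp but within 200 bp.

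**Figure D4:**
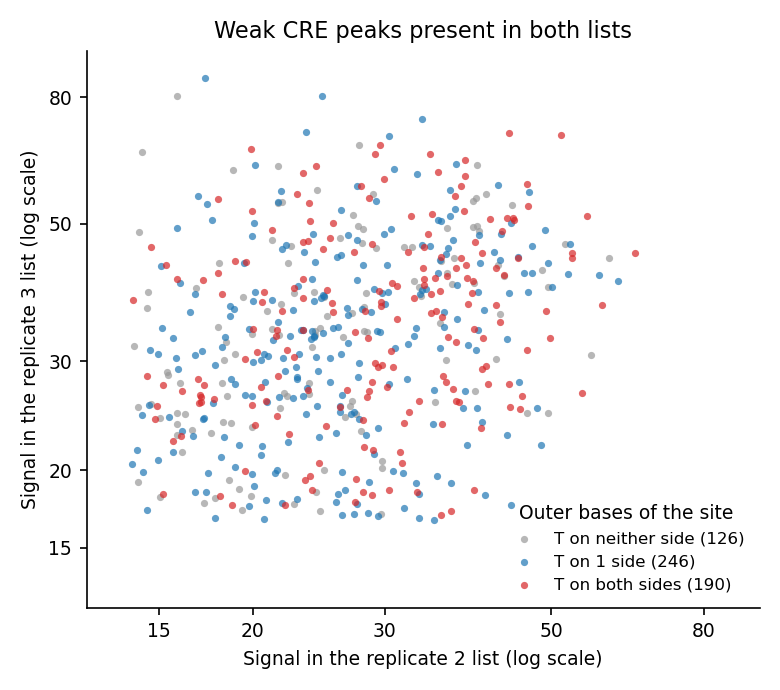
Signal in the list of replicate 2 (x axis) and of replicate 3 (y axis), both on log scales, for the 562 weak CRE peaks in both lists, coloured by the outer bases of the site. The points spread widely, with a rank correlation of 0.28.

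The CRE lay close to the summit more often than in the flanks. The median distance from the summit to the centre of the nearest site was 30 bp in the members, 22 bp in the IDR peaks with a CRE and 49 bp from the window centre in the flank windows. A site lay within 40 bp in 750 members (61.6%, 58.8 to 64.3), against 73.2% (66.8 to 78.9) of IDR peaks with a CRE and 42.3% (38.3 to 46.5) of flank windows with a site. The share within 40 bp was 70.5% (65.3 to 75.3) with T on both sides, 65.7% (61.4 to 69.7) with T on 1 side and 46.7% (41.4 to 52.1) with T on neither. The last interval overlapped that of the flank windows. Members with the site within 40 bp were also more often in both lists, with 52.3% within 20 bp, 52.6% at 21 to 40 bp and 36.1% (31.8 to 40.6) beyond. Their median pooled signals were 51.4, 49.1 and 42.3 in the same order, and the part of signal in this difference was not tested.

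**Figure D5:**
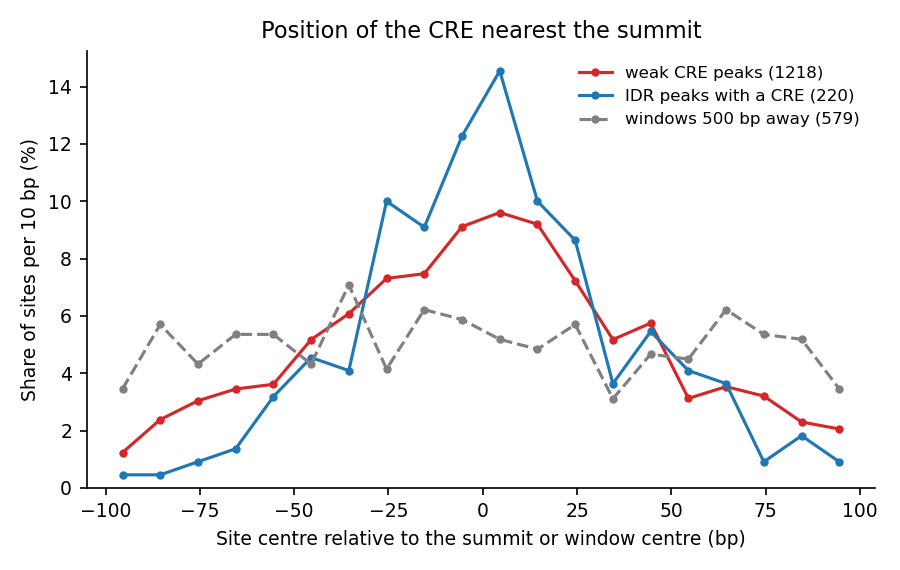
Distance from the summit to the centre of the nearest CRE, in bins of 10 bp, as a share of 1218 weak CRE peaks (red), 220 IDR peaks with a CRE (blue) and 579 flank windows with a CRE (grey, distance from the window centre). Weak CRE peaks had 61.6% of sites within 40 bp, between the 73.2% of IDR peaks and the 42.3% of flank windows.

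Most members had 1 CRE. There were 65 with 2 and 4 with 3, together 5.67% (4.43 to 7.12), against 13.2% (9.01 to 18.4) of IDR peaks with a CRE. Members with 2 sites had a median pooled signal of 54.4 and 67.7% of them (54.9 to 78.8) were in both lists, against 46.2 and 44.7% (41.8 to 47.7) for those with 1. No CRE was shared between 2 members or between a member and an IDR peak. The closest summits of the pooled list were 199 bp apart, which leaves no room for a shared site. An IDR summit lay within 500 bp of 19 members (1.56%) and within 200 bp of 7 (0.575%). Over all weak peaks these shares were 2.84% and 0.713%.

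The windows of 201 bases centred on the summit, 3 in all, show how the sites sit at coding, intronic and intergenic members. Every CRE is in capitals, and the last window holds 2. The first spans IV:9443038-9443238 and has 158 coding bases, the next IV:15234386-15234586 and the last V:16041550-16041750, neither with any.
F38E11.9: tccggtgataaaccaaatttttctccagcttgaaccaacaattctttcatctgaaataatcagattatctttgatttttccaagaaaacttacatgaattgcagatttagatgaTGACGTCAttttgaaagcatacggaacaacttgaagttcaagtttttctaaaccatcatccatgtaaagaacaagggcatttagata
pkd-2: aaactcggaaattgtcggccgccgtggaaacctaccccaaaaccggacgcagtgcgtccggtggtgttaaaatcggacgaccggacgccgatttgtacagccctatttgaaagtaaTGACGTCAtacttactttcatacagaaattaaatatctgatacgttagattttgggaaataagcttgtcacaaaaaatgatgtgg
his-1: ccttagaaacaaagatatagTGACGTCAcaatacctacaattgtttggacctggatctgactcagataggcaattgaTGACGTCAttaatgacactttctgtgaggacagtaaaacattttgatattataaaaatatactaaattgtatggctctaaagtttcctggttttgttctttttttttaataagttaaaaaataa

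F38E11.9 held the strongest member, with a pooled signal of 104.5, 64.6 in replicate 2 and 44.9 in replicate 3. Its site was 17 bp from the summit, in a coding exon 902 bp from the nearest 5′ end, and it had the best rank of any member in replicate 2 (902 of 28126). The second member was 183 bp inside vamp-7, which encodes a SNARE protein of late endosomes and lysosomes. It had a pooled signal of 104.3, with 33.7 in replicate 2 and 73.8 in replicate 3, at ranks 4187 and 1927 of the respective lists. ptr-4, a patched-related membrane protein gene, had a member 70 bp inside its start at 104.1, with 46.4 and 57.9. pkd-2 encodes a polycystin channel of male sensory neurons, and its intronic member was at 103.3, with 44.5 and 51.02.

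Of the 20 members with the highest pooled signal, many were inside genes. mpc-1, a subunit of the mitochondrial pyruvate carrier, had a coding-exon member at 103.3, with 61.4 in replicate 2 and 40.4 in replicate 3. gip-1, a gamma-tubulin complex protein, had one at 103.1, with 44.6 and 50.6. jip-1, a JNK-interacting scaffold protein, had one at 101.3, with 38.4 and 63.4. stn-1, a syntrophin gene, had a coding-exon member at 103.02 with a signal of 65.7 in replicate 3 and no summit in the list of replicate 2. All 4 lay just below the IDR limit in pooled signal. Of the 1218 members, 2 were among the 2247 strongest of both replicates (0.164%), against 3 of all 27753 weak peaks (0.0108%). Weak peaks all lay below the IDR limit in pooled signal, so few could be that strong in both. The 2 members were a coding-exon peak of Y53G8AL.1 (III:3239820-3240255, pooled signal 104.0) and an intergenic peak (III:13059221-13059656, 89.2). The latter lay 3997 bp from the nearest 5′ end, that of F54F12.1, and was named after its values were seen. Both members had T on both sides of the CRE.

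kin-1, the catalytic subunit of cAMP-dependent protein kinase and the kinase that phosphorylates CREB, had a member 9 bp inside its start, in the 5′ UTR. Its pooled signal was 102.5, with 17.3 in replicate 2 and 85.996 in replicate 3, the highest value of any member there. An IDR summit lay 210 bp away, and kin-1 also had an IDR peak in a promoter. col-103, a cuticle collagen gene, had a member 75 bp inside its start at 100.5, with 53.0 and 46.3. asd-1, a splicing factor gene of the Fox-1 family, had one 43 bp upstream of its nearest 5′ end, in an intron, at 99.8, with 31.1 and 35.1. Other members of the 20 strongest were at K05C4.5, W01D2.3, T04C9.1, ZK1290.10 and Y48G1A.1. Of these, W01D2.3 also had an IDR peak in a promoter, and an IDR summit lay 204 bp from its member. Intergenic members outside promoters lay 5734 bp from the 5′ end of Y102F5A.1 and 1106 bp from that of scrm-4, the nearest in each case.

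The 10 members in both lists with the site nearest the summit had it 0 or 1 bp away. Their pooled signals ran from 42.5 in an intron of camt-1, a calmodulin-binding transcription activator gene, to 98.6 at W09G3.6. The W09G3.6 summit lay 158 bp upstream of that gene's nearest 5′ end, in a coding exon. Other members lay in an intron of unc-7, an innexin gene (53.2), and 961 bp upstream of asp-2, an aspartyl protease gene (64.9). The rest were at zip-7, ndx-2, F40G9.5, denn-4 and nep-26, and between genes 2263 bp from the nearest 5′ end, that of trak-1. An IDR summit lay 199 bp from the ndx-2 member. Over all members the share with the site within 40 bp was 74.9% in the strongest of the 10 signal bins and 44.4% in the weakest.

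In all 347 of 19973 protein-coding genes had a weak CRE peak in a promoter (1.74%, 1.56 to 1.93). An IDR peak was in a promoter of 21 of the 347 (6.05%, 3.78 to 9.10), close to the 6.25% of all protein-coding genes. Of 27 gene lists, 17 had at least 1 such gene. None of the 30 endoplasmic reticulum stress genes, 24 heat shock genes, 17 mitochondrial stress genes, 27 oxidative stress genes, 16 insulin signalling genes or 19 effectors of the p38 pathway had one. Among the cytosolic ribosomal proteins 0 of 83 had one, although 24 of them had an IDR peak. The 1.74% of all genes lay inside the exact interval of each of the 27 lists.

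Among the transcription factors, 1 of 30 bZIP genes was on the list, zip-7, with a member 197 bp inside its start at 71.8 (38.4 in replicate 2 and 59.7 in replicate 3) and an IDR summit 210 bp away. hlh-30, the worm TFEB that drives autophagy genes, had a member 28 bp upstream of its nearest 5′ end, in a 5′ UTR, at 60.8. This member had a weak 18.3 in replicate 3 and none in replicate 2. bec-1, the worm Beclin, was the other of 30 autophagy genes, with a member at 73.8 (37.4 and 35.1). The bec-1 summit lay 197 bp upstream of its nearest 5′ end, in an intron. dlk-1, a MAP kinase kinase kinase of axon regeneration, was the only one of 31 stress MAP kinase genes, with a member 6 bp upstream of its nearest 5′ end, in a coding exon, at 63.0 (25.5 and 37.2). Both hlh-30 and dlk-1 also had an IDR peak in a promoter, and bec-1 did not. elt-3, a GATA factor of the hypodermis, had a member at 51.6 seen in replicate 3 alone (34.1). unc-86, a POU homeobox gene of neurons, had one at 26.4 that was in neither list. The larger families had 6 of 274 nuclear hormone receptor genes, 15 of 1266 chemoreceptor genes, 8 of 315 F-box genes, 5 of 181 ion channel genes and 4 of 145 neuropeptide and insulin-like peptide genes. nlp-56 led the peptides with 73.1 (26.8 and 47.9) and clh-1, a chloride channel gene, led the channels with 67.9 (22.7 and 39.4).

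Other motifs were counted in the same windows of 100 bp to either side, reading both strands, after the CRE itself had been masked. The E-box CACGTG was in 15.3% of members (13.3 to 17.4), 5.07% of other weak peaks and 13.6% of IDR peaks with a CRE. Around CRE sites with no peak, however, it was in 22.2% (20.9 to 23.5), against 15.5% (13.6 to 17.6) around sites with a weak peak. The E-box was thus no more frequent around CRE sites with a weak peak than around those with none. Members with an E-box had a soft-masked site in 65.6% of cases (58.3 to 72.4), against 36.4% of those without, and 24 of the 202 E-boxes lay at 72 bp from the CRE. A GATA site (TGATAA) was in 13.8% (11.9 to 15.9) of members, 18.04% of other weak peaks and 25.9% (20.3 to 32.2) of IDR peaks with a CRE. The GA repeat GAGAGAGA was in 1.31%, 3.16% and 7.27%. Members thus had fewer of both motifs than the IDR peaks with a CRE. A second TGACG outside the CRE was in 26.4%, 25.1% and 28.6%, with overlapping intervals. GC content within 100 bp of the summit was 39.5%, 40.3% and 41.0%.

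The share of repeats at the members lay between that of IDR peaks with a CRE and that of sites with no peak. The nearest site was soft-masked in 498 members (40.9%, 38.1 to 43.7), against 28.2% (22.3 to 34.6) of IDR peaks with a CRE. Of the CRE sites with no peak, 56.9% were soft-masked. Exact copies of the 60 bases around the site at other CRE sites were found for 13 members (1.07%, 0.569 to 1.82), for 0 of 220 IDR peaks with a CRE and for 438 of the 3876 sites with no peak (11.3%, 10.3 to 12.34). The part of read mapping in that difference was not tested. Members with a masked site had a median pooled signal of 44.9 and those with an unmasked site one of 48.8. Both lists held 45.2% and 46.8% of them, with overlapping intervals.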

How the data were processed

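The members and the gene lists were chosen with earlier results of these data known. Per the labels, the authors mapped the ChIP-seq reads to ce10 and ce11 and named a control. Which aligner and caller were used, and at which IDR threshold, is not given in the sources used here. The deposited signal value per peak is the authors' own, relative to the control per the labels' list of outputs, and its level is not comparable between lists, so values of the 2 replicates stand side by side as descriptions. The deposited −log10 q values were not used for ranking. The ce11 lists were joined to the WBcel235 genome (soft-masked RefSeq sequence) and to Ensembl release 115, with Python 3.11.15, numpy 2.4.6, pandas 2.3.3 and scipy 1.17.1. Coordinates count from 1. The lists held 28126 peaks (replicate 2), 30000 (replicate 3), 30000 (pooled) and 2247 (IDR). The site search and the summit matching were checked on simulated data. No test was run, since the members were selected on the readout and there is 1 group. Named genes were the 20 members of highest pooled signal, the 10 in both lists with the smallest distance from summit to site, and genes of the lists with a member in a promoter (up to 4 for the larger lists). The text gives values for some of these members and counts for the rest, and 1 of the 20 strongest is not reported here. Near-identical genes, such as histones, have uncertain values, because a read may fit several copies. Alternatives changed the window, the distances, the promoter, the replicates and the exclusion of IDR neighbours.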

Additional observations from a re-analysis of the deposited data

How the results depend on the processing

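No paired analysis was possible because there was 1 group. Of 45 alternative values, 26 stayed within the interval of the reported percentage or within 1.5 times the reported count, and 19 did not. The share of weak peaks with a CRE was 3.00% for sites within 50 bp, 5.94% within 200 bp and 6.29% anywhere in the called peak, where 4.39% was reported. Taken from 1 replicate's own list, without peaks whose summit was within 100 bp of an IDR summit, it was 4.53% for replicate 2 and 3.72% for replicate 3. The share of members in both lists was 31.8% for summits within 50 bp, 56.8% within 200 bp, 65.4% for overlapping intervals, 27.7% among the strongest 15000 peaks of each list and 74.1% in the stronger 609 members. Other weak peaks gave 16.7%, 39.4%, 53.6%, 12.01% and 61.9% under the same rules, so the members were higher in each. With 1 list alone the members' share was 67.8% to 69.4%. The promoter share was 39.4% with 2000 bp upstream. The share of CRE sites with a weak peak was 33.8%, 50.5% for T on both sides and 6.59%, 18.7% for T on neither side at 50 and 200 bp. It was 16.8% for T on neither side among unmasked single-copy sites. From 1 replicate's list alone these shares were 35.5% to 46.3% and 11.0% to 11.2%. These last alternatives were chosen after seeing the data. The causes were not tested. Depth is unknown, so peaks below the lists' length limits could not be examined.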

Other observations

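By the promoter rule of 1000 bp upstream, 3 of 52 histone genes had a member (his-1, his-2 and his-40). The share was 1.74% of all protein-coding genes. Each summit was 696 to 870 bp upstream of the gene counted. The 5′ end of another histone gene was nearer, at 459 to 633 bp, and the summit lay past that gene's 3′ end. The bases around 3 of the CREs at these members were alike when read in the same direction. Each is given 5′ to 3′ with the CRE in capitals. The first lies at X:7309309-7309338 on the plus strand, upstream of his-40, with its CRE 237 bp past the 3′ end of his-38. The second lies at V:16043024-16043053 on the minus strand, with its CRE 204 bp past the 3′ end of his-1. The third lies at V:16041616-16041645 on the plus strand, with its CRE 239 bp past the 3′ end of his-2. Both his-1 and his-2 lie between these last 2 sites. Each sequence is labelled by the gene whose promoter held the summit.
his-40: aaggcatttggTGACGTCActaatggaacc
his-2: taggcatttggTGACGTCActaatacctcc
his-1: taggcaattgaTGACGTCAttaatgacact
The second shared 25 and the third 23 of 30 bases with the first. These counts include the bases of the CRE itself, which are the same at every site. A site at X:7310737-7310766 on the minus strand, 228 bp from his-40, also shared 23 bases with the first and had no peak. The likeness was thus not limited to sites with a peak. This likeness was noticed in the data and was not tested. Within 1000 bp of a histone gene there were 25 CRE sites, of which 4 had a weak peak, 0 an IDR peak and 21 no peak. Over all CRE sites of the genome 21.4% had a weak peak and 4.36% an IDR peak. Many of the sites without a peak lie in histone genes present in near-identical copies, and the part of shared reads was not tested.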
